A study of Bos taurus with 12 samples.

Results

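Bovine conceptuses made by somatic cell nuclear transfer (SCNT) were compared with the fibroblasts (FB) that had supplied their nuclei. The features compared were the probe sets of an Affymetrix bovine array, each a group of short oligonucleotides that reads 1 transcript. Of 24016 probe sets other than controls, 7702 lay above log2 4 on at least 3 of the 6 arrays and were tested, and they stand for 4760 named genes. The series has 12 arrays in 4 groups of 3. SCNT conceptuses came from day 7 blastocysts transferred to synchronized cows and recovered on day 16, when the conceptus is an elongated filament. Embryos conceived in vivo by artificial insemination (AI) and embryos fertilized and cultured in vitro (IVP) were transferred and recovered at the same days. RNA came from 10 mg of each conceptus sample, or from a pellet of the donor cells. The tissue label of the FB arrays reads elongated embryo, whereas their description names donor fibroblasts. The labels give neither the tissue and culture of the fibroblasts nor whether 1 cell line supplied every SCNT conceptus. The labels do not tie replicate arrays to separate animals or cultures, so p-values measure only the spread between these arrays, which may be technical.

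In nuclear transfer, the nucleus of a body cell is placed in an oocyte whose own chromosomes were removed, and the oocyte's cytoplasm resets which genes are read. A fibroblast is a mesenchymal cell that builds collagen matrix and lies in it singly, held by a vimentin and actin cytoskeleton. The elongating ruminant conceptus is mostly trophectoderm, a sheet of epithelial cells that secretes interferon tau and other pregnancy proteins, lined by hypoblast and holding a small epiblast disc that forms the embryo proper.

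The cell types were checked against fixed markers. Of 11 fibroblast markers, 9 were above log2 4 on all 3 FB arrays and 2, FN1 and THY1, on all 3 SCNT arrays. THY1 and PDGFRB were the markers below log2 4 in FB. The log2 levels of these 11 summed to 98.57 to 99.16 on FB arrays and 38.18 to 38.54 on SCNT arrays. Of 9 trophoblast markers on the array, 0 were above log2 4 on any FB array and 7 on all SCNT arrays. Summed levels were 23.69 to 23.99 and 89.92 to 91.36. The 7 were IFNT2, KRT18, PAG11, PAG2, SSLP1, TFAP2A and TKDP1, and the rest exceeded log2 4 on no SCNT array. No red cell (8) or endothelial (10) marker exceeded log2 4 on any of the 6 arrays, and of 16 leukocyte markers only ITGB2 did, reaching 5.15 on an SCNT array. Of 6 keratinocyte markers, KRT10 was above log2 4 in both groups (2.22-fold lower in SCNT), SFN on all SCNT arrays and KRT5 on some SCNT arrays. Of 10 uterine markers, CST6 and SPP1 were above log2 4 on all FB arrays, and CST6 also on some SCNT arrays, up to 4.07. Of 5 hypoblast markers, APOA1 and GATA6 were above log2 4 on all SCNT arrays, while TTR was so on all FB arrays, up to 6.89, and on no SCNT array. Of 3 epiblast markers, CRIPTO was above log2 4 on all SCNT arrays and 0 on any FB array. In bulk RNA like this, fewer cells of a type and less RNA per cell cannot be told apart.

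Each array held 6473 to 6643 probe sets above log2 4. Pearson's r across the tested probe sets, which are not independent, was 0.984 to 0.991 between SCNT arrays, 0.995 to 0.996 between FB arrays and 0.491 to 0.504 between the groups. Hybridization spike-in signal was 8.07 to 8.20 on SCNT and 7.72 to 7.85 on FB arrays, and the GAPDH 3' signal exceeded the 5' signal by 0.28 to 0.45 on SCNT and 0.01 to 0.06 on FB arrays (log2). Both measures moved with the groups, and their part in the differences was not tested. With 3 arrays a group, the median standard error of a log2 difference was 0.11.

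Most tested probe sets differed between cloned conceptuses and donor cells. By limma with Benjamini-Hochberg adjustment, 6407 probe sets (83.2%) differed at an adjusted p under 0.05 and are termed called. Of these, 2913 (37.8%) were lower and 3494 (45.4%) higher in SCNT. At least 2-fold, 1885 (24.5%) were lower and 1918 (24.9%) higher. At least 16-fold, 276 (3.58%) were lower and 150 (1.95%) higher, so the steepest falls outnumbered the steepest rises. For 6554 probe sets (85.1%) every array of one group lay above every array of the other. The median difference over all tested probe sets was 0.15, on the log2 scale as are all differences here, with SCNT minus FB as the direction.

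A probe set was termed on in a group when all 3 arrays were above log2 4, and off when none was. Shut off meant on in FB, off in SCNT and called lower, and this held for 1261 probe sets (16.4%) of 725 named genes. Switched on meant the reverse and held for 1081 probe sets (14.0%) of 651 genes. Kept meant on in both groups, which 4796 (62.3%) were. Of the kept probe sets, 2594 (33.7% of those tested) were held within 2-fold, meaning that the 95% interval of the difference lay inside -1 to 1. Another 626 kept probe sets fell and 901 rose by at least 2-fold. The 564 left over were termed mixed, nearly all with arrays of at least 1 group on both sides of log2 4. A few of them were on in 1 group and off in the other but not called. The median difference was -2.42 for shut-off, 1.89 for switched-on and 0.20 for kept probe sets. A probe set that passed the filter through 1 group only had to lie higher in that group. These classes thus describe the arrays and test nothing beyond the fit. The same holds for list members given below as shut off or switched on, whose direction the filter fixed. At the edge of the filter, 2370 probe sets were above log2 4 on exactly 3 arrays and 376 on exactly 2.

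**Figure D1:**
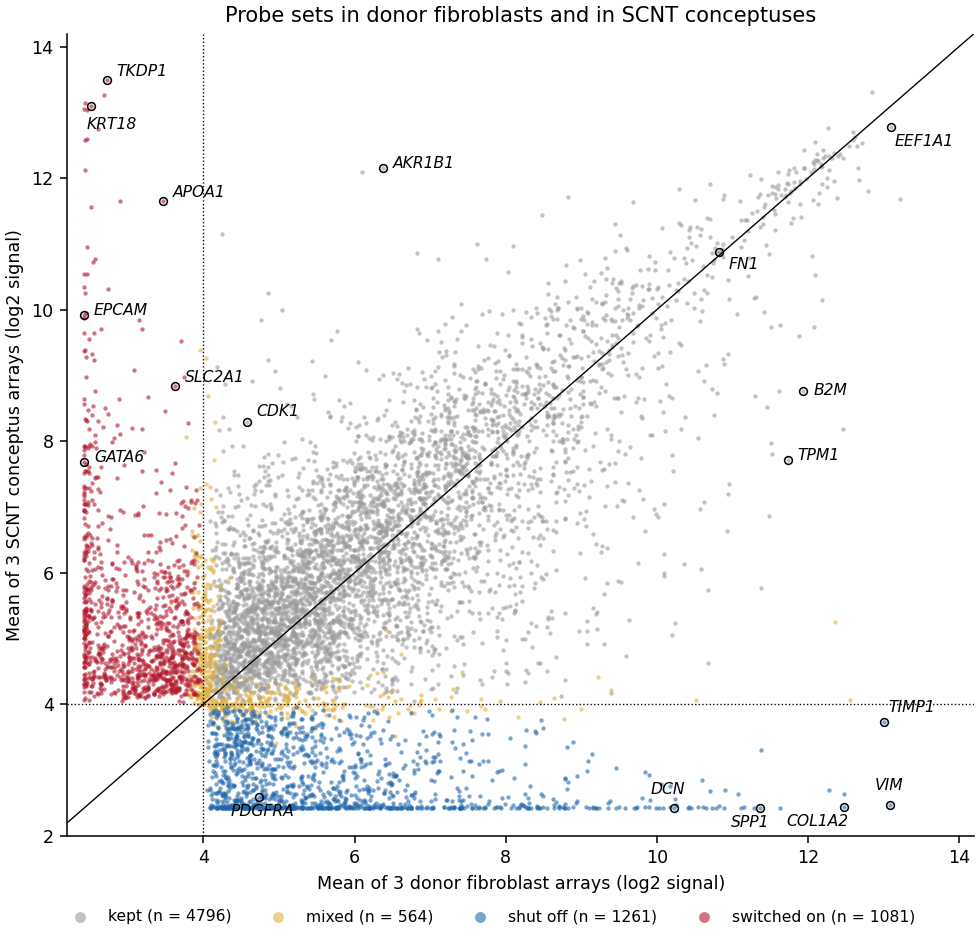
Mean log2 signal of each of the 7702 tested probe sets on the 3 donor fibroblast arrays (x axis) and the 3 SCNT conceptus arrays (y axis), coloured by class. The diagonal marks equal signal and the dotted lines mark log2 4. Shut-off probe sets such as those of VIM and COL1A2 lie along the bottom, switched-on ones such as TKDP1 and KRT18 along the left, and the 4796 kept ones spread about the diagonal.

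Genes were read by their brightest probe set, which gave 1687 of 4760 genes lower (35.4%), 2222 higher (46.7%), 641 shut off (13.5%) and 568 switched on (11.9%). Of the 4760 genes, 3243 (68.1%) were kept and 1756 held within 2-fold, and the median difference was 0.19. Every count of list members given below stands beside these shares of all genes. For a group averaging under log2 4, values under 4 were raised to 4 before the fold was taken. Such a fold is a lower bound and is written as at least. Genes named only because a count of 5 or fewer refers to them were chosen after their values were seen.

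RNA of the tested fibroblast collagens lay below log2 4 in the cloned conceptus by the brightest probe sets. Of 12 fibrillar and associated collagen genes on the array, 8 were tested, and all 8 fell and were shut off. Their median difference was -6.56. All 8 passed the filter through FB arrays alone, so their direction was fixed in advance. COL1A2, a chain of type I collagen, gave 12.55, 12.49 and 12.39 on the FB arrays and 2.49, 2.42 and 2.42 on the SCNT arrays. The groups lay far apart, and the fall was at least 357-fold (difference -10.04 with SE 0.09, adjusted p 1.55e-11, limma, as for every adjusted p in this text). COL6A1, of the microfibrillar type VI collagen, was at 11.02, 10.99 and 10.66 in FB and at 2.42 on each SCNT array. COL3A1 fell at least 110-fold, COL15A1 at least 34.4-fold and COL1A1 at least 30.5-fold. Among untested probe sets of these collagens, 1 exceeded log2 4 on an SCNT array, up to 4.13. Enzymes that process collagen fell less evenly. Of 17 tested, 15 fell, 6 were shut off and 10 were kept. The cross-linking oxidases LOXL1 (at least 28.3-fold) and LOX (at least 6.21-fold) and the procollagen proteinase enhancers PCOLCE (at least 13.7-fold) and PCOLCE2 (at least 15.9-fold) were shut off. LOXL4 fell at least 26.9-fold, with 1 SCNT array at 4.08 and the others at or below 3.90. COLGALT1, which glycosylates collagen, was not called (4.99 ± 0.06 in FB and 5.10 ± 0.20 in SCNT, SD, n = 3). P4HB, a prolyl hydroxylase subunit that also folds other secreted proteins, rose by 0.92.

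Genes of noncollagenous matrix went the same way. Of 26 tested mesenchymal matrix proteins and proteoglycans, 25 fell and 20 were shut off, with a median of -4.29. The small leucine-rich proteoglycan FMOD, which steers collagen fibril assembly, gave 11.62, 11.58 and 11.69 in FB and 2.42 on all SCNT arrays. TNC, an adhesion-modulating glycoprotein, gave 11.03, 11.32 and 11.12 against 2.44, 2.44 and 2.43. Both lay at or near the floor of the table in SCNT. DCN, another collagen-binding proteoglycan, fell at least 75.0-fold. THBS1 (thrombospondin 1) fell at least 136-fold by its brightest probe set, although its 5 tested probe sets disagreed, with 3 called lower and 1 higher. MGP, an inhibitor of calcification, fell at least 101-fold by its brightest probe set, and its other tested probe set was called higher. The exception among the 26 was FN1, fibronectin, which gave 10.69, 10.92 and 10.86 in FB and 10.76, 10.73 and 11.16 in SCNT. These arrays overlapped (difference 0.06, adjusted p 0.699). Basement membrane genes were split, with 3 of 6 lower and 3 higher. COL4A1, a chain of the type IV collagen of basement membranes, gave 2.81, 2.88 and 2.96 in FB and 8.57, 8.38 and 8.98 in SCNT. That was a rise of at least 25.0-fold. LAMB2 was shut off (at least 1.44-fold), and LAMC1 was held within 2-fold while lower by 0.45, a call that was lost without FB replicate 2 or 3.

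VIM, the intermediate filament protein of mesenchymal cells, had the largest fall of any named gene. It gave 13.14, 13.01 and 13.13 on FB arrays and 2.46, 2.46 and 2.47 on SCNT arrays, at least 546-fold lower (adjusted p 1.55e-11). Of the 20 contractile and actin-bundling genes tested, 13 fell and 3 were shut off. The 14 that were kept are a share near the 68.1% of all genes. ACTA2, smooth muscle actin, gave 11.45, 11.43 and 11.26 against 2.98, 3.29 and 3.67 and was shut off. TPM1, a tropomyosin, stayed on but fell 16.2-fold (95% interval 12.8 to 20.4), from 11.73 ± 0.11 to 7.71 ± 0.29. TAGLN, an actin cross-linker of contractile cells, fell 8.54-fold (5.32 to 13.7), with 1 SCNT array at 6.07 and the others at 7.25 and 7.35. TPM2 fell 36.2-fold and had SCNT arrays on both sides of log2 4, at 3.31, 4.42 and 4.94. Of the 20 genes 8 were held within 2-fold, beside 1756 of all 4760 genes. TLN1 (talin) was at 4.80 ± 0.23 in FB and 4.58 ± 0.17 in SCNT, and ACTN4 at 7.51 ± 0.15 and 7.32 ± 0.21, neither called, although the other probe set of ACTN4 was called higher. Its relative ACTN1 fell 2.15-fold (1.77 to 2.62), the actin cross-linker FLNA 2.25-fold and the actin-bundling LIMA1 3.90-fold, and all 3 were kept. Cytoplasmic gamma actin, ACTG1, gave 12.62, 12.57 and 12.60 in FB and 12.58, 12.75 and 12.78 in SCNT by its brightest probe set, not called (adjusted p 0.308), while its other tested probe set was called lower.

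Few mesenchymal transcription factors were measurable. Of 14 on the array, 4 were tested, and all 4 were shut off. These 4 passed the filter through FB arrays alone, so they could only be lower. ZEB1, a repressor of epithelial genes, gave 5.23, 5.05 and 5.80 in FB and 2.42 on each SCNT array. NFIB was at least 4.57-fold, MEOX2 at least 2.28-fold and TCF4 at least 1.60-fold lower. These folds are small because the FB levels were not far above log2 4. Of 10 HOX genes on the array, 0 reached the filter, so positional identity was not measurable.

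Most genes for fibroblast surface proteins fell. Of 22 tested genes, 19 fell and 10 were shut off (median -3.62). S100A4, a calcium-binding protein named for fibroblasts, gave 12.48, 12.27 and 12.71 in FB and 2.76, 2.62 and 2.53 in SCNT, at least 358-fold lower. CAV1, which forms caveolae, gave 10.05, 10.05 and 10.43 against 2.43 on each SCNT array. CDH11, the cadherin of mesenchymal cells, fell at least 45.3-fold, the protease FAP at least 37.8-fold and the hyaluronan receptor CD44 at least 24.6-fold. CDH2, N-cadherin, was not called (5.40 ± 0.03 against 5.63 ± 0.18), and neither was S100A10, which anchors annexin A2 (10.84 ± 0.02 against 10.87 ± 0.19, with its other probe set called lower). THY1, a surface glycoprotein used to sort fibroblasts, ran the other way: it gave 2.78, 3.28 and 3.15 in FB and 4.94, 5.08 and 5.32 in SCNT (adjusted p 2.14e-06).

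Secreted proteases, inhibitors and cytokines of fibroblasts fell in 15 of 18 tested genes, and 10 were shut off. CTSK, a collagen-degrading cathepsin, gave 12.24, 12.33 and 12.26 in FB and 2.76, 2.76 and 2.60 in SCNT. TIMP1, the metalloproteinase inhibitor, was measured by 2 probe sets, of which 1 fell at least 517-fold and the other 360-fold, and its SCNT arrays sat close to log2 4, at 3.98, 3.96 and 3.24 on the first and 4.11, 4.11 and 3.98 on the second. SERPINF1, an antiangiogenic serpin, fell at least 139-fold, and the chemokine CCL2 at least 97.4-fold. HTRA1, a secreted serine protease, fell at least 155-fold. SPP1 (osteopontin), fixed here as a uterine marker, was at 11.23, 11.36 and 11.48 in FB and at 2.42 on every SCNT array. The 3 that rose were ADAMTS1 (4.47), CTSL (5.09) and PTGS2 (8.76).

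Growth-factor genes fell in 13 of 15 tested, with 9 shut off. DKK3 (at least 87.3-fold), the IGF-binding proteins IGFBP6 (at least 72.4-fold) and IGFBP4 (at least 12.7-fold), and the ligands VEGFC (at least 9.43-fold) and TGFB2 (at least 4.07-fold) were lower. VEGFA was not called (6.66 ± 0.18 against 6.43 ± 0.31), and BMP2 was the 1 that rose, by 0.66. All 10 tested genes of interferon response and MHC class I fell, with a median of -3.05. Of these, 8 were shut off, so the filter fixed their direction. Another 20 on the array did not reach the filter. B2M, beta-2 microglobulin of the MHC class I complex, gave 11.97, 11.88 and 11.96 in FB and 8.37, 9.28 and 8.64 in SCNT, a 9.03-fold fall (6.52 to 12.5). IFNGR2, a chain of the interferon gamma receptor, fell at least 10.4-fold, IFITM1 at least 8.72-fold, IFIT5 at least 5.29-fold and the peptide-loading chaperone TAPBP at least 3.05-fold.

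**Figure D2:**
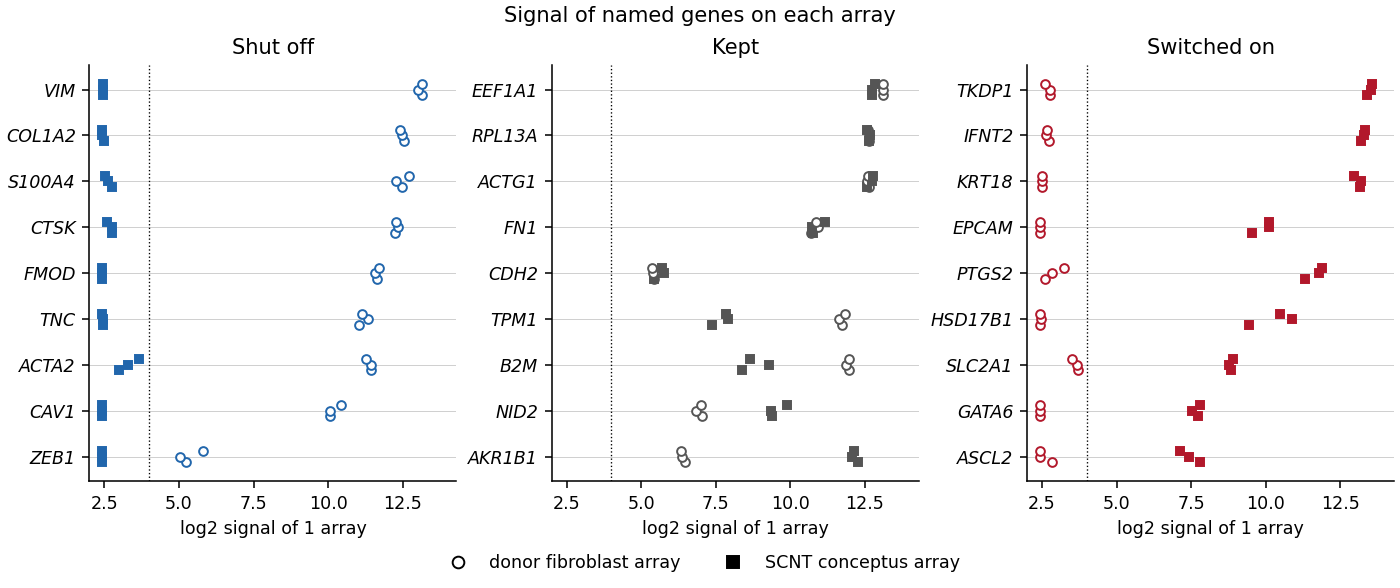
Log2 signal on each FB array (open circles) and each SCNT array (filled squares) of 9 genes shut off, 9 kept and 9 switched on. The dotted line marks log2 4. In the outer panels the groups lie on opposite sides of it, for example VIM at 13.01 to 13.14 in FB and 2.46 to 2.47 in SCNT, whereas FN1 and RPL13A overlap in the middle panel.

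Genes of protein synthesis, protein breakdown and respiration were on in both groups, and most were held. Of 65 ribosomal protein genes tested, 65 were kept and 61 held within 2-fold, beside 3243 and 1756 of all 4760 genes. Of the 65, 6 were lower (9.23%, beside 35.4% of all genes) and 15 higher (23.1%, beside 46.7%). RPL13A gave 12.62, 12.65 and 12.60 in FB and 12.65, 12.68 and 12.56 in SCNT, with overlapping arrays (difference 0.01, adjusted p 0.952). RPS20 (-0.01) and RPS12 (-0.06) were likewise not called. The 4 that were not held included 2 paralogues with symbols of the same pattern. RPS27L fell 12.2-fold (9.05 to 16.5) and RPL7L1 rose 2.08-fold (1.79 to 2.41). The others were RPS28 and RPL14, 1.89-fold and 1.75-fold higher. Of 77 oxidative phosphorylation subunits, 55 were held. Of the 77, 44 rose (57.1%, beside 46.7% of all genes) and 8 fell (10.4%, beside 35.4%), with a median of 0.39. The largest rises were ATP5MC1 (2.84-fold), CYC1 (2.82-fold), ATP5F1C (2.52-fold) and COX5A (2.45-fold), parts of the ATP synthase and of the respiratory chain. COX7A1, the muscle-type isoform of a cytochrome oxidase subunit, was shut off (5.35, 4.98 and 5.11 against 2.47, 2.42 and 2.47). Of 30 proteasome subunits, 21 were held, 17 rose (56.7%, beside 46.7% of all genes) and 3 fell (10.0%, beside 35.4%). The assembly chaperone PSMD10 rose 7.73-fold (6.33 to 9.44) and the immunoproteasome subunit PSMB10 was shut off, at 5.52, 5.40 and 5.36 against 3.33 on each SCNT array.

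The brightest genes held within 2-fold also included EEF1A1, the translation elongation factor, at 13.09, 13.12 and 13.09 in FB and 12.75, 12.75 and 12.84 in SCNT. TMSB10, which binds monomeric actin, was 1.38-fold higher (1.19 to 1.60) and the peroxidase PRDX1 1.41-fold higher (1.22 to 1.62). Ferritin heavy chain FTH1 and RPS2 were not called, although both were called lower after quantile normalization. A probe set annotated to the hormone precursor POMC was among them as well (12.66 ± 0.06 and 12.15 ± 0.17), and whether it reads that transcript was not tested. Glycolytic genes fell in 9 of 17 tested (52.9%, beside 35.4% of all genes) and rose in 3 (17.6%, beside 46.7%), with 8 held. GAPDH, at 12.19 ± 0.03 and 11.91 ± 0.21, was not called (adjusted p 0.0501).

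Most tested genes for secreted products of the trophoblast rose steeply. Of 31 such genes on the array, 9 were tested and 8 were switched on, and 22 did not reach the filter. The 8 passed it through SCNT arrays alone, so they could only be higher. TKDP1, a Kunitz-domain protein of the ruminant trophoblast, gave 2.78, 2.76 and 2.61 in FB and 13.40, 13.52 and 13.57 in SCNT, a rise of at least 722-fold and the largest of any named gene (adjusted p 1.55e-11). IFNT2, interferon tau, the ruminant signal of pregnancy recognition, gave 2.73, 2.62 and 2.68 against 13.20, 13.29 and 13.31. PAG11, a pregnancy-associated glycoprotein of the aspartic protease family, gave 2.46, 2.42 and 2.43 against 12.99, 13.22 and 13.24. The FB arrays were at or near the floor for each of these. PAG2 rose at least 382-fold, TKDP4 at least 189-fold and SSLP1 at least 388-fold. These families hold many close paralogues, so which member a probe set reads is uncertain. PRL, prolactin, was the 1 tested gene of the list that fell, by 1.26. Outside the list, PLAC8A rose at least 109-fold, from 2.56, 2.43 and 2.74 to 11.29, 10.76 and 10.26.

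The epithelial programme rose with them. Of 24 tested genes of junctions and keratins, 22 rose and 18 were switched on, with a median of 4.31. KRT18, a keratin of simple epithelia, gave 2.51 on each FB array and 13.15, 13.19 and 12.96 on SCNT arrays. KRT19 gave 2.42, 2.45 and 2.42 against 12.21, 12.04 and 12.09. Both were off on every FB array and on in every SCNT array. The tight-junction protein CLDN6 rose at least 106-fold, the adhesion molecule EPCAM at least 60.5-fold and the membrane protease PRSS8 at least 19.7-fold. CTNNB1, beta-catenin, which also serves cell types without such junctions, was held and lower by 0.37, and ANXA3 was not called. PTGS2, the inducible prostaglandin synthase, stood on the fibroblast list yet was switched on in the conceptus, at 2.60, 2.85 and 3.22 in FB and 11.30, 11.78 and 11.87 in SCNT (at least 201-fold).

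Of 16 tested trophoblast transcription factors, 13 rose and 9 were switched on (median 1.62). ASCL2, an imprinted factor of placental progenitors, gave 2.84, 2.42 and 2.42 in FB and 7.80, 7.41 and 7.11 in SCNT. GRHL1, an epithelial factor, rose at least 9.70-fold and HAND1, a factor of trophoblast differentiation, at least 5.77-fold. Listed factors that fell were MSX1 (at least 7.10-fold), HOPX (at least 4.38-fold) and KLF5, which was held and lower by 0.44. The hypoblast factor GATA6 gave 2.42 on each FB array and 7.74, 7.51 and 7.79 on SCNT arrays, and was the 1 of 4 such factors on the array that was tested. Among 8 tested plasma proteins made by hypoblast and yolk sac, 5 rose and 2 fell by the brightest probe set. AHSG was not called (0.01) by that probe set, although 4 others of it were switched on. ALB counted as lower (-0.48) but had both a shut-off and a switched-on probe set. APOA1, the main protein of high-density lipoprotein, gave 3.40, 3.56 and 3.47 against 11.45, 11.84 and 11.65. FETUB, a fetuin, gave 2.51, 2.42 and 2.42 against 9.62, 8.96 and 9.26, and RBP4, the retinol carrier, rose at least 3.19-fold. TTR, transthyretin, went the other way, from 6.89, 6.57 and 6.78 to 2.43 on each SCNT array. Of 5 epiblast and pluripotency genes on the array, 2 were tested. CRIPTO, a NODAL coreceptor, was switched on (2.62, 2.77 and 2.42 against 5.53, 5.31 and 5.39), and KLF4, which is also expressed in fibroblasts, was shut off (8.95, 8.84 and 9.04 against 2.94, 2.92 and 2.85).

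Genes of steroid, lipid and nutrient handling moved in both directions. The counts below stand beside 46.7% of all genes higher, 35.4% lower and 68.1% kept. Of 10 steroid genes, 7 rose (70.0%) and 3 fell (30.0%), and 5 were kept. HSD17B1, which activates estrogens, gave 2.42, 2.47 and 2.42 in FB and 9.42, 10.86 and 10.47 in SCNT. AKR1B1, an aldo-keto reductase that also makes prostaglandin F, was on in both groups and rose 54.7-fold (46.9 to 63.7), from 6.38 ± 0.07 to 12.15 ± 0.11. CYP11A1, the side-chain cleavage enzyme that starts steroid synthesis, rose at least 3.04-fold, whereas TSPO, a mitochondrial cholesterol-binding protein, and HSD11B1, which activates glucocorticoids, fell at least 35.3-fold and 7.08-fold. Of 24 fatty acid genes, 16 rose (66.7%) and 6 fell (25.0%), and 13 were kept. MOGAT1, which makes diacylglycerol, rose at least 52.2-fold, and the transporter SLC27A6 at least 7.71-fold with SCNT arrays at 5.78, 7.73 and 7.33. FABP4, a lipid carrier of fat cells and fibroblasts, fell from 9.69, 9.81 and 9.67 to 2.42, 2.43 and 2.42. Of 12 tested nutrient transporters, 7 rose (58.3%, beside 46.7% of all genes), 5 fell (41.7%, beside 35.4%) and 5 were kept. The glucose transporter SLC2A1 gave 3.71, 3.67 and 3.50 against 8.83, 8.78 and 8.89, and the fructose transporter SLC2A5 and the peptide transporter SLC15A1 rose at least 5.95-fold and 2.71-fold. The monocarboxylate transporter SLC16A1 was on in both groups and rose 9.04-fold (7.52 to 10.9), while SLC38A2, a neutral amino acid transporter, fell 7.83-fold (6.52 to 9.42).

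Proliferation genes were higher in the conceptus. Of 38 tested cell cycle genes, 29 rose (76.3%, beside 46.7% of all genes) and 8 fell (21.1%, beside 35.4%). Their median was 2.14. MAD2L1, of the spindle checkpoint, gave 3.92, 3.72 and 4.26 in FB and 9.35, 9.37 and 9.43 in SCNT. CDK1, the mitotic kinase, rose 13.2-fold (11.1 to 15.6), and the checkpoint kinase BUB1 at least 8.52-fold. Genes that fell included CDKN1A, the p21 inhibitor (7.77, 7.88 and 8.08 against 3.31, 3.06 and 2.58), and CCND1, cyclin D1 (at least 9.35-fold), while CCND3 was not called. Regulators of DNA methylation and chromatin rose in 16 of 25 tested genes (64.0%, beside 46.7%) and fell in 4 (16.0%, beside 35.4%). Of the 25, 7 were switched on. The histone chaperone NASP rose 6.65-fold (5.28 to 8.37) and the demethylase KDM1A 4.10-fold. TRIM28, a corepressor that protects imprints, rose at least 4.57-fold, and EZH2, the Polycomb methyltransferase, gave 3.70, 3.55 and 3.63 against 5.80, 5.53 and 5.38. Imprinted genes split, with 8 of 13 lower (61.5%, beside 35.4%), 4 higher (30.8%, beside 46.7%) and SNURF not called. TFPI2, a protease inhibitor, fell at least 59.7-fold and PLAGL1, a zinc finger factor, at least 3.40-fold, whereas the cell cycle inhibitor CDKN1C gave 3.06, 3.36 and 3.40 in FB and 8.60, 8.83 and 8.59 in SCNT. PEG3 rose at least 7.17-fold, and IGF2R, which clears IGF2, was kept and fell 2.32-fold (1.99 to 2.70).

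**Figure D3:**
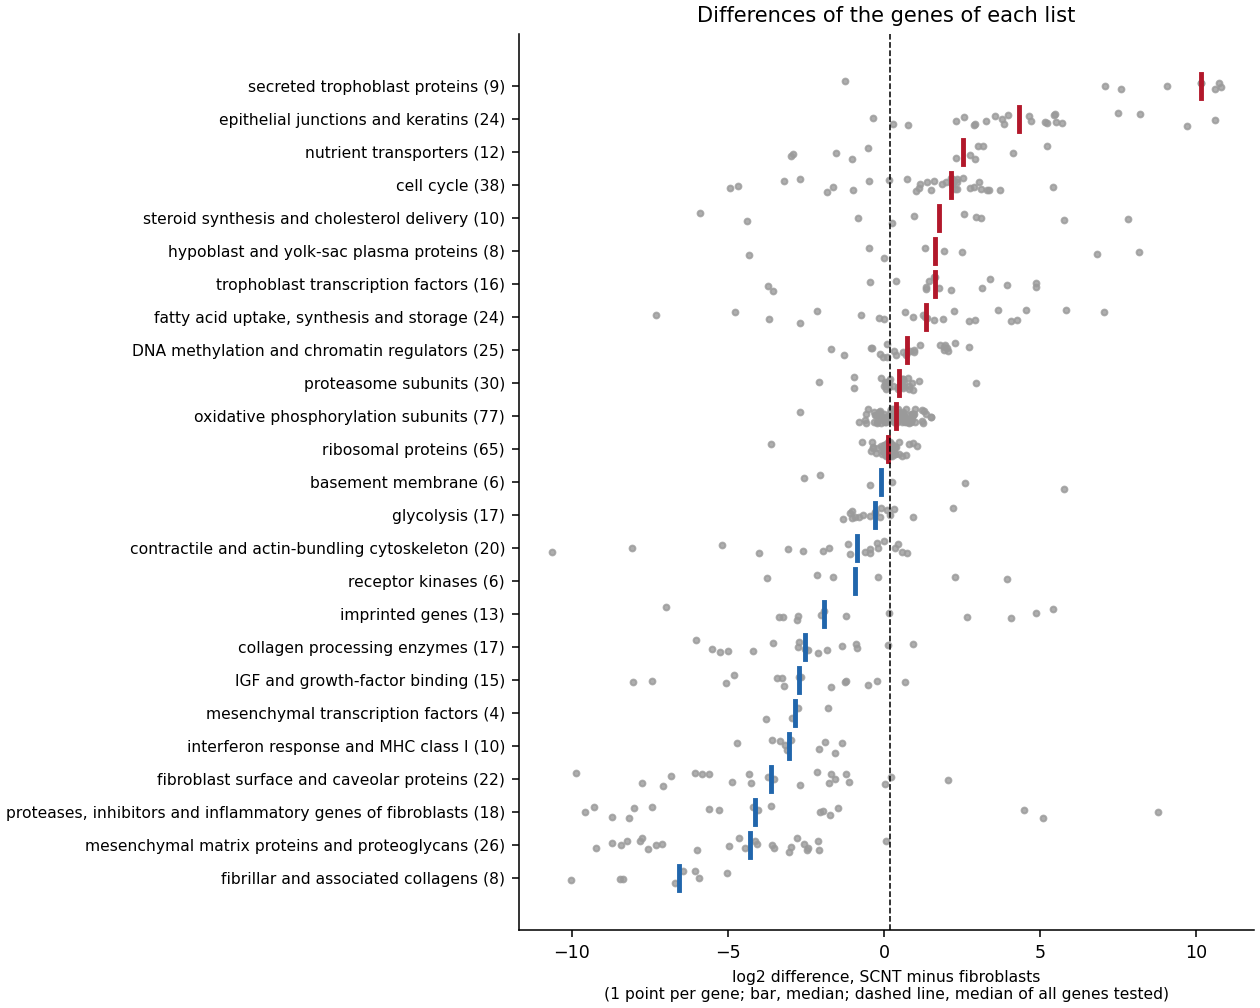
Log2 difference, SCNT minus FB, of each tested gene (points) of the lists with at least 4 tested genes, ordered by list median (bars), with the number of genes in brackets. The dashed line marks the median of all genes tested, 0.19. Medians run from -6.56 for the collagens to 10.14 for the secreted trophoblast proteins, and ribosomal proteins (0.13) lie closest to the line.

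Within several families 1 relative fell and another rose. These pairs were chosen after their values were seen. Nidogens link laminin to type IV collagen, and NID1 fell 5.92-fold (9.20, 9.08 and 9.18 against 6.35, 6.69 and 6.73) while NID2 rose 5.98-fold (7.03, 6.84 and 7.02 against 9.38, 9.36 and 9.89). Of the phosphofructokinases, which commit glucose to glycolysis, muscle-type PFKM was shut off and liver-type PFKL rose 4.61-fold (3.96 to 5.36). The acyl-CoA synthetases, which activate fatty acids, showed ACSL5 shut off (7.53, 7.57 and 7.33 against 2.93, 2.65 and 2.58) and ACSL6 switched on (3.66, 3.59 and 3.85 against 9.27, 9.78 and 9.50). Among receptor kinases, PDGFRA, a receptor of mesenchymal cells, fell from 4.74 ± 0.34 to 2.59 ± 0.14, and KIT, the stem cell factor receptor, rose from 2.44 ± 0.04 to 6.36 ± 0.60. TGFBR2 was shut off and FGFR2 switched on in the same list. Because probe sets differ in brightness, the levels of relatives are not compared with each other.

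**Figure D4:**
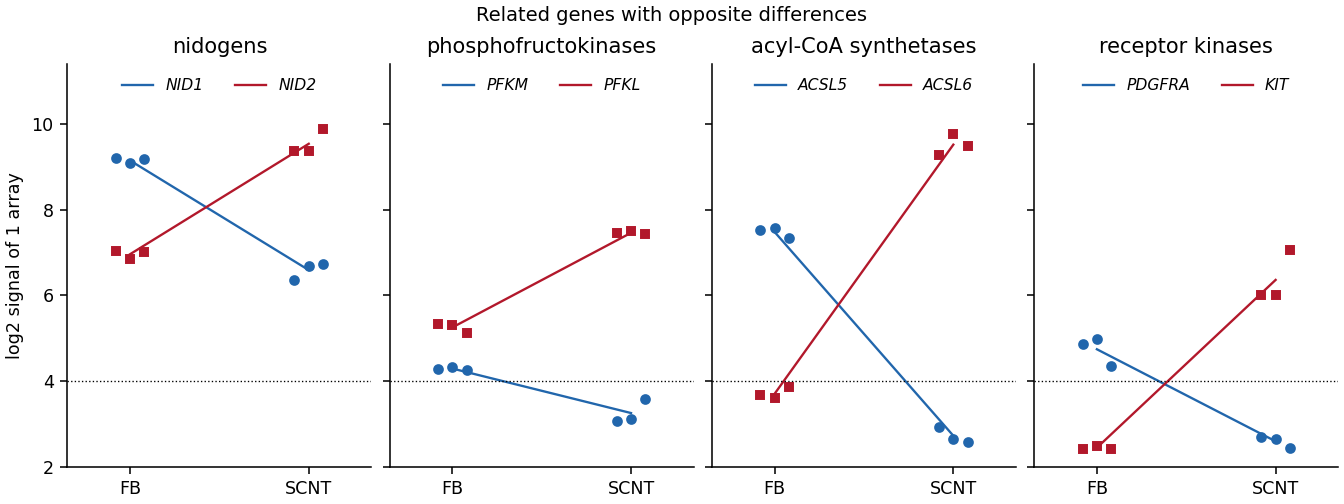
Log2 signal on each FB and SCNT array of 4 pairs of related genes, with lines joining the group means and a dotted line at log2 4. In each pair the gene in blue was lower and the gene in red higher in SCNT, for example NID1 and NID2.

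PDGFRA and KIT are also neighbours in the gene order of the bovine assembly ARS-UCD2.0. Among 1338 pairs of tested genes that adjoin in that order, 25 joined a shut-off with a switched-on gene. In 39 pairs both genes were shut off and in 29 both were switched on. Whether 25 is more or fewer than the class shares would give was not tested. Of the tested neighbours of shut-off genes, 78 of 325 (24.0%) were shut off too, beside 13.5% of all tested genes, including CAV1 with CAV2, LUM with DCN, COL5A2 with COL3A1 and ACTA2 with FAS. Neighbours of switched-on genes were switched on in 58 of 294 cases (19.7%, beside 11.9%), including TKDP1 with TKDP4 and PAG2 with PAG12. Neighbours can be gene copies that share probe sequence, and the excess was not tested.

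To ask whether fibroblast genes were left on in the clones, SCNT was set against the conceptuses whose nuclei never were a fibroblast's. In a fit of all 12 arrays over 8164 probe sets, 1097 probe sets (617 genes) were on in FB and off on all 6 AI and IVP arrays. In SCNT, 1054 of them (96.1%) were off, 42 were mixed and 1 was on. Without 1 SCNT array at a time, 2 to 6 were on (5 without replicate 1, 2 without replicate 2 and 6 without replicate 3). With fewer arrays the rule for on is looser, so this count could only stay or grow. The 1 on all arrays read C1D, a nuclear exosome cofactor, at a mean of 4.54 in FB, 4.32 in SCNT, 3.87 in AI and 3.82 in IVP. None of the 1097 was called above both AI and IVP by limma, although 21 were at an unadjusted p under 0.05 in both comparisons. Over all 8164 probe sets, 52 (0.637%) were above both and 34 (0.416%) below both, and the class had 1 below both, KIAA1191. SCNT stands in both comparisons, so they are not independent. Against AI alone, 43 of the class (3.92%) were higher and 45 (4.10%) lower, beside 18.0% and 13.0% of all 8164. Against IVP alone, 0 were higher and 1 (0.0912%) lower, beside 0.808% and 0.747%. By its choice the class lay below log2 4 in AI and IVP, where levels cannot be ordered, so these shares say little about the class. The median level of the class was 5.20 in FB and 2.64 in SCNT. Put from the other side, 1053 of the 1261 shut-off probe sets (83.5%) were off on all AI and IVP arrays, and 5 were on there, of which 3 have a name: CD55, a complement inhibitor, the collagen hydroxylase PLOD1 by 1 of its probe sets, and the lipid kinase DGKA. CD55 had means of 7.29 in FB, 3.42 in SCNT, 6.40 in AI and 4.34 in IVP.

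The mirror class, off in FB and on on all AI and IVP arrays, held 834 probe sets (504 genes). In SCNT, 791 (94.8%) were on, 40 were mixed and 3 were off. Without 1 SCNT array at a time, 4 to 6 were off, a count that the looser rule could only keep or raise. The 3 were HSPG2, the basement membrane proteoglycan perlecan (means 3.69 in SCNT, 4.36 in AI and 4.48 in IVP), GZMB, a protease of cytotoxic lymphocytes (2.95, 5.81 and 5.59), and a probe set with no symbol. Against AI alone, 149 of the 834 (17.9%) were higher and 174 (20.9%) lower, beside 18.0% and 13.0% of all 8164. Against IVP alone, 11 (1.32%) were higher and 18 (2.16%) lower, beside 0.808% and 0.747%. The class was chosen to be on in AI and IVP, so these shares are a description. Of the 834, 11 were called above both and 14 below both other conceptus groups, beside 0.637% and 0.416% of all 8164. These counts were 8 and 9 without SCNT replicate 1, 1 and 7 without replicate 2, and 4 and 12 without replicate 3. Lower in SCNT were ADD3, a membrane skeleton protein that had still risen from 3.89, 3.98 and 3.89 in FB to 5.71, 5.94 and 6.17, the plasma proteins FETUB, AHSG and APOH, the ammonium transporter RHBG, and HSPG2 and GZMB. Higher were SLC10A1, a bile acid transporter at 9.04, 9.66 and 9.31 in SCNT (mean 7.54 in AI and 8.55 in IVP), and 6 more named genes. Of the 1081 switched-on probe sets, 791 (73.2%) were on in all AI and IVP arrays and 19 off in all, with SCNT means of only 4.05 to 4.88. These 19 were picked for SCNT values above and AI and IVP values below log2 4, so their differences are a description only. Several have a name, of which MARK1, a microtubule kinase, had the highest SCNT mean, at 4.67 beside 3.21 in AI and 3.55 in IVP. C1D, CD55, PLOD1, DGKA, HSPG2 and GZMB were likewise singled out by their SCNT values, so their differences are a description only.

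**Figure D5:**
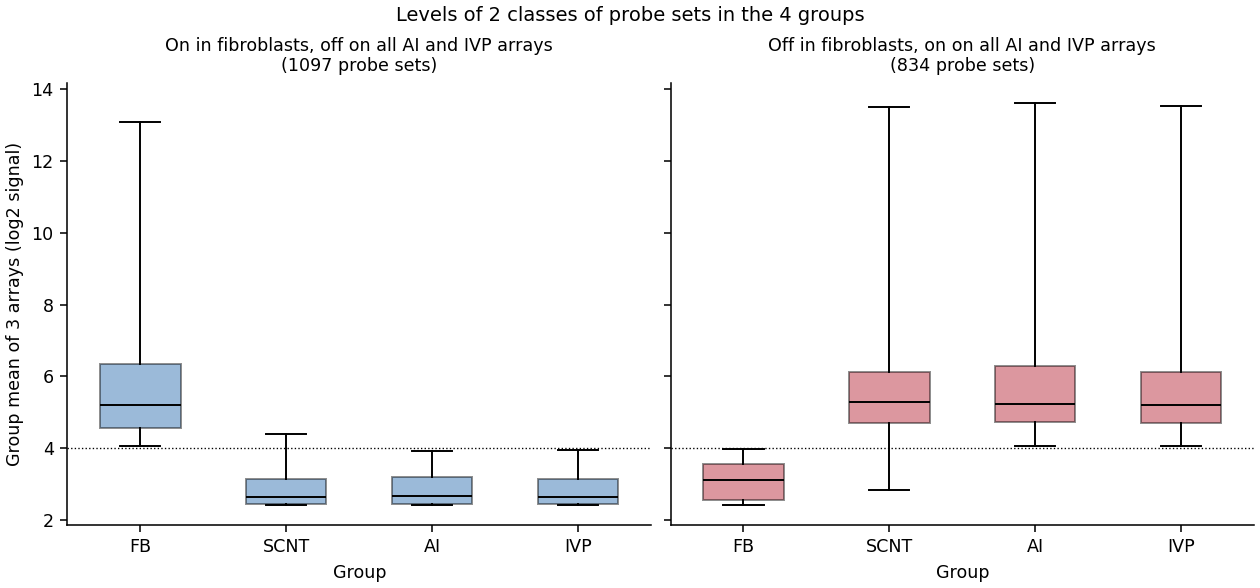
Group means of the 1097 probe sets on in fibroblasts and off on all AI and IVP arrays (left) and of the 834 with the reverse pattern (right), in the 4 groups. Boxes show the quartiles and median, whiskers the full range, and the dotted line log2 4. By the way the classes were chosen FB, AI and IVP had to lie as they do, and SCNT, which was not used, lies with AI and IVP, with median levels of 2.64 and 5.29.

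SCNT arrays varied more than FB arrays, with a median SD of 0.15 against 0.10, and 66.5% of probe sets had the larger SD in SCNT. Among switched-on genes with the widest spread, 4 probe sets of AHSG, fetuin-A, moved together, for example 6.46, 7.29 and 8.81 on the SCNT arrays for the brightest of these. The fifth tested probe set of AHSG was on in both groups and not called. Of 661 genes with several tested probe sets, 38 had called probe sets in both directions, and 9 had both a shut-off and a switched-on one: ALB, EED, FGF1, HEATR1, ITPR1, MGP, NFATC3, RPE and ZFAND3. The 6 probe sets of XIST, the RNA that silences an X chromosome in female cells, reached no more than 2.44 on any SCNT or FB array, while 2 AI arrays and 1 IVP array exceeded log2 4, with a highest value of 6.55.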

How the data were processed

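Biotin-labelled RNA was hybridized to Affymetrix bovine arrays, per the labels' protocols. The authors deposited log2 signals. The submitters' processing notes name GCRMA and limma, with versions and joint normalization of the arrays not given in the sources used here. GCRMA leaves a floor: 37.4% of values lay within 0.01 of the lowest, 2.42, so the level of a gene there is only bounded.

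The deposited values were used as they stand, without 112 control probe sets. The array annotation gave 1 symbol for 13292 probe sets, several for 86 and none for 10638, of which 13263 matched the ARS-UCD2.0 gene table, used for names and gene order. Probe sets above log2 4 on at least 3 of the 6 arrays were fitted with limma 3.58.1 (R 4.3.3), with 4 residual degrees of freedom, two-sided and Benjamini-Hochberg adjusted. A second fit held all 12 arrays. Errors are SD over 3 arrays unless SE is written. On simulated data for SCNT against FB (7702 probe sets) the fit recovered 60.6% of 1.5-fold, 94.6% of 2-fold and 99.6% of 4-fold changes. Of its calls 5.54% were false. The simulation changed only a small part of the probe sets and had no floor, whereas 83.2% were called in the data. These shares therefore check the fit and do not carry over to the comparison.

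Named genes were the 12 largest falls and rises, up to 5 called members of each of 35 lists, the 10 brightest held genes, up to 10 of each class against AI and IVP, and uncalled list members. Members and lists were chosen with earlier results of these data known. Deviations of same-numbered SCNT and FB arrays correlated at 0.0858, -0.0125 and 0.215, so the numbers were not taken as pairs. Paralogues of other function whose symbols start like a ribosomal, respiratory or proteasome gene were mostly left out after their names were seen. No sequences are shown.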

Additional observations from a re-analysis of the deposited data

Results flagged for a closer look

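Probe sets of the fibroblast or conceptus class were singled out where SCNT differed from both AI and IVP by limma over 12 arrays, and the values here are SCNT minus AI on the log2 scale. Below AI were AHSG by 4 probe sets (-3.52, -4.51, -4.70 and -4.31), GZMB (-2.86), ADD3 by 2 probe sets (-2.67 and -1.40), RHBG (-2.17), APOH (-2.06), FETUB (-1.61), HSPG2 (-0.67) and KIAA1191 (-0.63). Above AI were SLC10A1 by 2 probe sets (1.79 and 1.98), TSR1 (0.90), ABLIM1 (0.85), HEATR1 (0.59), TMEM125 (0.49), RAP1A (0.41) and SMAGP (0.30).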

How the results depend on the processing

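Filters, quantile normalization, median centring, the fit of all 12 arrays, a variance trend and the omission of single arrays left the count of called probe sets between 4638 and 8507. The 4638 came with log2 5 required on 3 arrays. The 8507 came without a filter, from all 24016 probe sets, so the called share there was well below 83.2%. A test against a 2-fold difference (limma treat) called 3018. Requiring log2 5 on 3 arrays left 667 shut off and 450 switched on. With on defined at log2 3, 697 were shut off and 399 switched on, and with log2 5, 3038 were kept and 1699 held. With the replicate number as a block 6442 were called, and 8 of the conceptus class were above and 9 below both other conceptus groups. The replicate block changed no call of a named probe set between SCNT and FB.

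Fibroblast-class probe sets above AI and IVP numbered 1 with log2 3 and 4 with log2 5, of which SUN2 and NAGK have names. Those on in SCNT numbered 2 and 5 at these levels and 0 after quantile normalization. Conceptus-class probe sets off in SCNT numbered 5 with log2 3 and 6 after quantile normalization, and those above both other groups 6 with log2 5. Leaving out 1 SCNT array at a time gave 0 to 1 fibroblast-class probe sets above both and 2 to 6 on in SCNT. For the conceptus class it gave 4 to 6 off, 1 to 8 above both and 7 to 12 below both. The counts of on and off could not fall, because fewer arrays had to meet the rule. Averaging the probe sets of a gene turned the basement membrane median to 0.07 from -0.10. Of 2242 values for 161 named probe sets under these settings, 2229 kept direction and call, 5 (LAMC1, ENO3) lost the call, 8 gained it and 0 reversed. A floor of log2 3 or 5 in place of 4 raised or lowered each bound of a fold by construction. The causes of the other differences were not tested. Levels below log2 4 cannot be ordered, and 3 arrays a group limit precision.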
